A study of Homo sapiens with 2 samples.

Results

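The genes examined were 5 HLA class I heavy chain genes, HLA-B, HLA-C, HLA-E, HLA-F and HLA-G, and B2M, which encodes β2-microglobulin. They were listed by name, no measured value entered the rule, and each name matched 1 of the 55797 gene rows deposited for both libraries, so that 6 genes of 55797 are described. The RNA came from the established human embryonic stem cell line H1, taken to Stage 6 of a pancreatic differentiation protocol, and neither group carried an engineered allele. One culture was split into a pair of samples. The live group (1 library) was unfixed, unsorted cells whose RNA was prepared with an RNeasy kit. The processed group (1 library) was cells that had been fixed with formaldehyde, made permeable with saponin, stained with antibodies and run through a cell sorter without selection, and a different kit with a long protease digestion released their RNA (MARIS). Libraries made from poly-A RNA were read from both ends, 80 nt each. Both groups share 1 cell line and 1 differentiation, and the isolation kit differs along with fixation and sorting, so these cannot be told apart.

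Class I molecules sit on the surface of nearly all nucleated cells and present peptides made from the cell's own proteins. Each consists of a membrane-spanning heavy chain, which holds the peptide, and the small invariant light chain β2-microglobulin, without which most heavy chains are not transported to the surface. HLA-B and HLA-C are classical, highly polymorphic heavy chains that are read by CD8 T cells and by receptors of natural killer cells. HLA-E presents the signal peptides of other class I chains to the CD94/NKG2 receptors, HLA-G is best known from the invasive trophoblast of the placenta, and HLA-F is a non-classical chain found largely inside cells. Pluripotent cells are known for low class I expression, which interferon can raise.

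Class I genes are driven by a short conserved stretch upstream of the start site, with an enhancer A bound by NF-kB, an element answering to interferon regulatory factors and an SXY module. This stretch is shown because it is the shared regulatory feature of genes that differed widely in level in these cells. The sequences are those of RefSeq on GRCh38.p14, from position -200 to -41 relative to the annotated start site, 5′ to 3′ along the gene. Entries were found for 5 of the 6 members, all but HLA-E. HLA-G has 3 entries, and the one whose window holds any of the motifs below is shown. The windows are chr6:31357220-31357379 (minus strand) for HLA-B, chr6:31272133-31272292 (minus strand) for HLA-C, chr6:29723234-29723393 (plus strand) for HLA-F, chr6:29827625-29827784 (plus strand) for HLA-G and chr15:44711317-44711476 (plus strand) for B2M. Capitals mark every match, on either strand, to GGGGATTC (the start of enhancer A), TTTCNCTT (the interferon element in its class I form), GAAANNGAA (the general core of interferon elements), TGACG (the core of the X2 box) and CCAATCAG (a CCAAT box). Because either strand was searched, a match to CCAATCAG on the opposite strand is an inverted CCAAT box. Other forms of the inverted CCAAT box, which ends the SXY module, were not searched for.
HLA-B: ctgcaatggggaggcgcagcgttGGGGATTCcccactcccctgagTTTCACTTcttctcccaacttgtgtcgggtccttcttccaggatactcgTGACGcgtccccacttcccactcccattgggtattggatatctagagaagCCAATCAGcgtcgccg
HLA-C: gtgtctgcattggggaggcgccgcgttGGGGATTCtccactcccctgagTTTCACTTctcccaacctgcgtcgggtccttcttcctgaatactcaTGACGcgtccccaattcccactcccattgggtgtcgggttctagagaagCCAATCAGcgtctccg
HLA-F: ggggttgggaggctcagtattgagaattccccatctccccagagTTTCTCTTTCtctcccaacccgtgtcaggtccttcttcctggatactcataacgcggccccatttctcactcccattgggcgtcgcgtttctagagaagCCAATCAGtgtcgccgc
HLA-G: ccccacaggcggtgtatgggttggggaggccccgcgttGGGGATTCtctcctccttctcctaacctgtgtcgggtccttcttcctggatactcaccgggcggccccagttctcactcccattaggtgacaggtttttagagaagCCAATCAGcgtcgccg
B2M: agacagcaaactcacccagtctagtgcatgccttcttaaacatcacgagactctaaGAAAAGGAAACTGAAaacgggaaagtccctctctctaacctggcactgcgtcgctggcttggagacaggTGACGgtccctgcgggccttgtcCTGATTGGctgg

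HLA-B and HLA-C held the same 4 motifs in the same order, GGGGATTC at -177 and -173, TTTCNCTT at -155 and -151, TGACG at -106 and -105 and CCAATCAG at -56 in both, counted from the start site. The HLA-G window held GGGGATTC at -162 and CCAATCAG at -56 but no match to TTTCNCTT, GAAANNGAA or TGACG. The HLA-F window held TTTCNCTT at -156, overlapping a match to GAAANNGAA on the other strand, and CCAATCAG at -57. B2M held a pair of overlapping GAAANNGAA matches at -144 and -138, TGACG at -75 and CCAATCAG on the opposite strand at -52. Among all 35116 promoter entries, the same 160 base window held GGGGATTC in 0.498%, TTTCNCTT in 4.06%, GAAANNGAA in 4.34%, TGACG in 14.5% and CCAATCAG in 3.10%. A match describes letters only, and binding was not measured.

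The libraries were of similar breadth. Values are in FPKM, the number of fragments of a gene scaled to its exon length and to the size of the library, which the authors computed with a lower and an upper bound for each gene. Ranges in parentheses after an FPKM are these bounds. The level of the bounds is not given in the sources used here. In live cells 16004 genes, and in processed cells 15957 genes, had an FPKM of 1 or more. The 8 markers of pancreatic endocrine cells were all at an FPKM of 1 or more. In the paper, insulin-positive cells were only a small minority of cells at this stage. Neither sample was selected for a marker, so the values here are those of a mixed culture and not of endocrine cells alone. Of the 8 markers, 3 were higher and 2 lower with separate bounds, and 3, CHGA included, had overlapping bounds. Of the 17326 genes expressed at 1 FPKM or more in either library, 28.1% were higher and 43.7% lower. INS, the insulin gene, was at 98.3 FPKM in live and 121 in processed cells, and the granin CHGB at 6.56 and 3.16. CHGA, the highest marker, was at 1794 FPKM in live cells. Its processed estimate was marked as failed by the authors' software, with bounds of 0 and 4712. Its overlap is counted above, but bounds this wide cannot show a difference. Each condition has 1 library, so no value has a replicate error and no test between conditions was made. The bounds stand for the precision of a value within its own library. In bulk RNA, a change in the number of cells of one type and a change in RNA per cell cannot be told apart.

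B2M (ENSG00000166710, chromosome 15, 45003675 to 45011075 on GRCh37, plus strand) had the highest level of the 6 genes. Its FPKM was 125 in live cells, with bounds of 120 and 129, and 142 in processed cells, with bounds of 137 and 146. It was thus 1.14-fold higher in processed cells and the bounds did not overlap. B2M stood at rank 528 of all 55797 genes in live and at rank 432 in processed cells.

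HLA-C (ENSG00000204525, chromosome 6, 31236526 to 31239907, minus strand), a classical heavy chain that is also the main ligand of killer cell immunoglobulin-like receptors, was the highest of the 5 heavy chain members. Live cells gave an FPKM of 55.4 (53.9 to 57.0) and processed cells one of 59.7 (58.0 to 61.5). The processed value was 1.08-fold the live value, the smallest of the differences among the 4 members that reached an FPKM of 1. HLA-B (ENSG00000234745, chromosome 6, 31321649 to 31324965, minus strand), the most polymorphic classical heavy chain, was at 22.2 FPKM (20.8 to 23.7) in the live library. In the processed library it was at 27.3 FPKM (25.7 to 28.9), 1.23-fold higher.

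HLA-E (ENSG00000204592, chromosome 6, 30457244 to 30461982, plus strand), the non-classical chain that presents signal peptides, was the one member above an FPKM of 1 that was lower in processed cells. It was at 11.0 FPKM (10.5 to 11.4) in the live and at 8.60 FPKM (8.20 to 9.01) in the processed library, so that the live value was 1.28-fold the processed value. The order B2M, HLA-C, HLA-B, HLA-E was the same in both libraries, and in each library the bounds of every pair of neighbours in this order were separate.

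HLA-G and HLA-F were at or near 0 in both libraries. HLA-G (ENSG00000204632, chromosome 6, 29794744 to 29798902, plus strand) had an FPKM of 0.073 in live cells, with bounds from 0.012 to 0.134. In processed cells its value was listed at 2.56e-23, with an upper bound of 0.045, so that the bounds overlapped. HLA-F (ENSG00000204642, chromosome 6, 29690552 to 29706305, plus strand) was at 0.014 FPKM (0.0081 to 0.020) in the live library and was listed at 0, with bounds of 0, in processed cells. Such low values are often listed at or near 0 in the processed library. Of 3405 genes with a live FPKM from 0.01 to under 0.1, 59.3% were under 0.001 in processed cells, as both HLA-F and HLA-G were. Neither gene was detectable in processed cells at this depth.

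**Figure D1:**
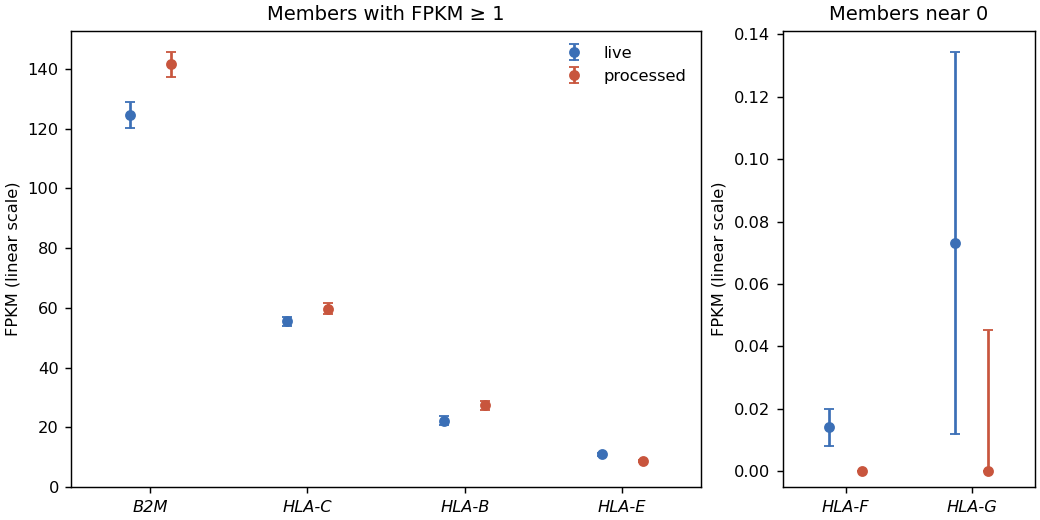
FPKM of the 6 members in live (blue) and processed (red) cells, with 1 library each. Points are the deposited values, error bars run from the lower to the upper bound, and the scale of the right panel, for HLA-F and HLA-G, reaches only 0.14 FPKM. B2M, HLA-C and HLA-B lay higher in processed cells and HLA-E lower, each with separate bounds.

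The scale for differences between the libraries is log2((processed FPKM + 1) / (live FPKM + 1)), on which a positive value means higher in processed cells and low values are drawn towards 0. The log2 ratio was 0.28 for HLA-B, 0.18 for B2M, 0.11 for HLA-C and -0.32 for HLA-E. All 4 members expressed at 1 FPKM or more had separate bounds, 3 of them higher and 1 lower in processed cells. Separate bounds were common, however, and held for 71.8% of the 17326 genes expressed at 1 FPKM or more in either library, with 28.1% of them higher and 43.7% lower. The 4 of 4 is therefore no result about class I genes. None (0) of these 4 members was past 2-fold, where 12.8% of the 17326 genes were, 6.57% higher and 6.19% lower. HLA-F and HLA-G are not among the 17326 genes. With a pseudocount of 1, no fall from their low live values could pass 2-fold. The median log2 ratio of these 17326 genes was -0.092. The median processed-to-live ratio was 0.932. Dividing processed values by it shifts ratios up by about 0.10, and the share of all genes with separate bounds then became 34.8% higher and 35.7% lower. With that scaling, HLA-E stayed lower with separate bounds, at -0.23. B2M, HLA-B and HLA-C were already higher, so scaling processed values up could not change their direction or bring their bounds together.

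Against genes of like level, none of the 4 stood at the edge. HLA-B had a log2 ratio above that of 83.3% of the 3109 genes whose mean FPKM lay within 1.5-fold of its own, and B2M above that of 84.8% of 448 such genes. HLA-C lay above 73.9% of 1347 genes. HLA-E lay above 31.4% of 3875 genes. The central 90% of genes of like level ran from -0.66 to 0.63 for HLA-B and from -0.84 to 0.90 for HLA-E. These percentiles describe the pair of libraries and are across genes, not replicates.

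**Figure D2:**
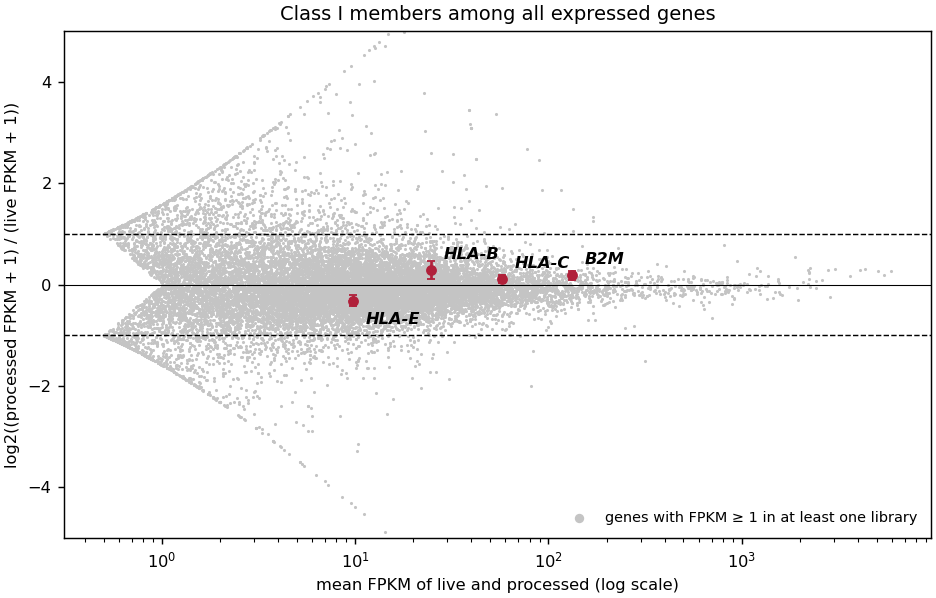
Log2 ratio of processed to live FPKM (pseudocount 1) against mean FPKM on a log scale for the 17326 genes expressed at 1 FPKM or more in either library (grey, 13 of them beyond the vertical axis). The 4 members among them are red circles, with bars from the lower to the upper bound of the ratio, and dashed lines mark 2-fold. All labelled genes lie between the lines, HLA-B, HLA-C and B2M above 0 and HLA-E below it.

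Within a library, levels of heavy chain members can be set against each other. HLA-C was above HLA-B by 2.49-fold (2.27 to 2.74 from the bounds) in live and 2.19-fold (2.01 to 2.39) in processed cells, ranges that overlap. HLA-B exceeded HLA-E by 2.03-fold (1.82 to 2.25) in live and by 3.17-fold (2.85 to 3.52) in processed cells, a pair of ranges that do not overlap. Such ratios within a library do not depend on how the libraries were scaled.

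Summed over the 5 heavy chain members, FPKM was 88.7 in live and 95.6 in processed cells. Only these 5 genes enter this sum, which is not the whole of class I heavy chain RNA. HLA-C made up 62.5% of the sum in both. HLA-B made up 25.1% in live and 28.5% in processed cells, and HLA-E made up 12.4% in live and 8.998% in processed cells. HLA-G and HLA-F together contributed 0.098% of the live sum of the 5 members and about 0 of the processed sum.

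**Figure D3:**
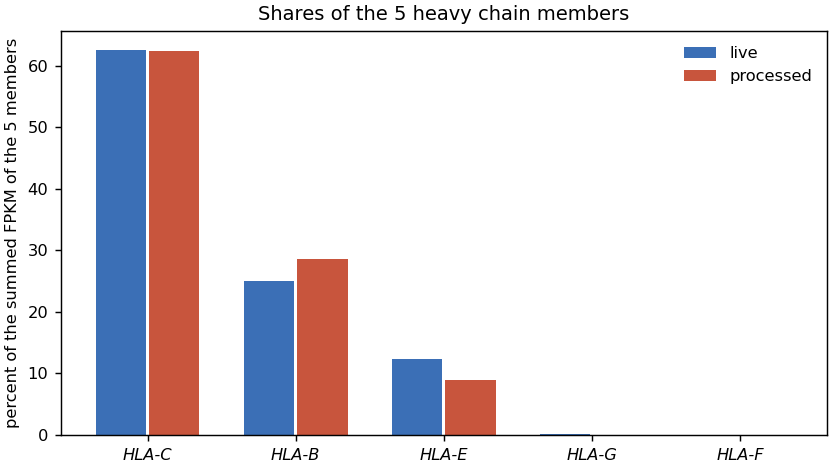
Share of each gene in the summed FPKM of the 5 heavy chain members, in percent, for live (blue) and processed (red) cells with 1 library each. HLA-C held 62.5% in both, the share of HLA-B was higher and that of HLA-E lower in processed cells, while HLA-G and HLA-F are not visible at this scale.

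B2M was above each of the 5 heavy chain members. It had 2.25 times the FPKM of HLA-C in live cells (2.11 to 2.39) and 2.37 times in processed cells (2.24 to 2.51), ranges that overlap. Against HLA-E the ratio was 11.3 in live (10.5 to 12.2) and 16.5 in processed cells (15.3 to 17.8). Relative to the sum of the 5 heavy chain members, B2M was 1.40 in live and 1.48 in processed cells. Since the sum covers these 5 genes only, it does not say whether light chain RNA exceeded all heavy chain RNA. FPKM is a level per length of transcript, so these are ratios of RNA and not of protein.

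Heavy chain genes resemble each other closely, which bears on how a read can be assigned. On the reference transcripts that Ensembl marks as canonical, coding sequences of the 5 members were 84.1% (HLA-E and HLA-F) to 92.5% (HLA-B and HLA-C) identical. The runs of bases shown here are the longest that HLA-B shares with HLA-C, the member most like it, and that HLA-E shares with HLA-G. On the reference, a read of 80 nt that spans the first run also covers a base that differs, whereas the second run is longer than a read. The HLA-B and HLA-C run of 66 bases lies in exon 3, at chr6:31324078-31324143 of HLA-B and chr6:31238984-31239049 of HLA-C. The HLA-E and HLA-G run of 114 bases lies in exon 4, at chr6:30459050-30459163 of HLA-E and chr6:29797331-29797444 of HLA-G. Positions are on GRCh37 and sequences are given 5′ to 3′ along the gene.
HLA-B and HLA-C: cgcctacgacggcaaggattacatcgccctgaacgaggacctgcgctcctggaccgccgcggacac
HLA-E and HLA-G: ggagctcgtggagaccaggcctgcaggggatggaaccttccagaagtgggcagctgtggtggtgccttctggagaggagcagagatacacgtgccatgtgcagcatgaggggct

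Over the whole canonical transcript, stretches of 80 nt that occur exactly in a transcript of another gene were few. They numbered 0 of 1457 in HLA-B, 0 of 1401 in HLA-F and 0 of 864 in B2M. In HLA-C 24 of 1463 were shared, and all of these occur in the pseudogene HLA-H among others. In HLA-E 42 of 2469 were shared, 35 of them with HLA-G, where the same 35 stretches were 2.82% of 1240. HLA-H itself had an FPKM of 0.284 in live and 0.777 in processed cells. These counts are for the reference sequence. The alleles of H1 were not used here, and reads that differ from the reference allele can be lost or assigned to another heavy chain, so levels of HLA-B and HLA-C relative to each other are uncertain to an extent that was not tested. No other gene in the files overlaps HLA-B, HLA-C, HLA-E or B2M, and the genes that overlap HLA-F (3) and HLA-G (1) were at or near 0.

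**Figure D4:**
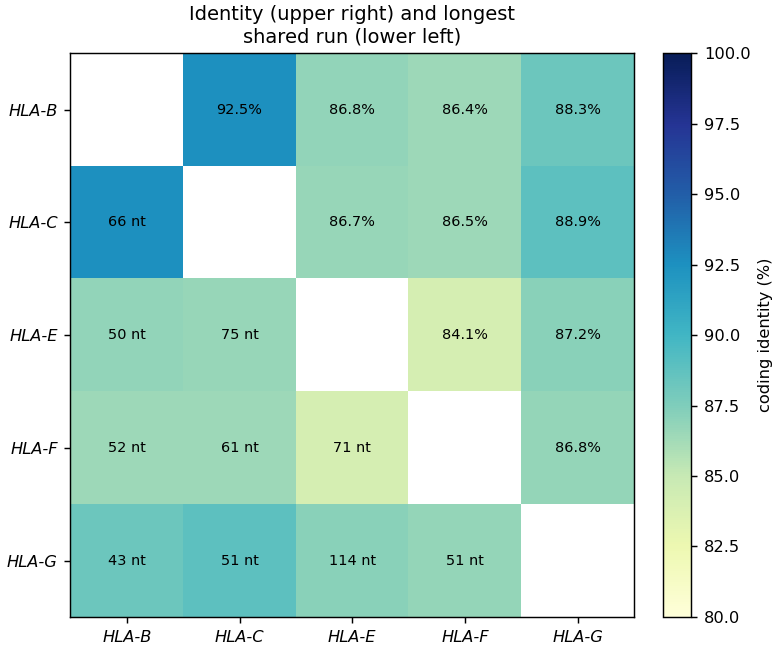
Identity of coding sequences between pairs of class I heavy chain genes, in percent of aligned bases (upper right), and the longest run of identical bases in nt (lower left), from canonical reference transcripts. Colour gives identity. HLA-B and HLA-C are the most alike members at 92.5%, yet the longest run is that of HLA-E and HLA-G at 114 nt.

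The machinery that loads class I molecules was uneven in level and mostly lower in processed cells. Of 18 listed genes of antigen processing and class I assembly, 11 reached an FPKM of 1. Of these, 9 were lower with separate bounds, 0 were higher and 2 overlapped, where 43.7% of all genes were lower. Their median log2 ratio was -0.25, against -0.092 for all genes. After division by the median ratio, 6 were lower and 1 higher with a median of -0.16. With that scaling, 35.7% of all genes were lower and 34.8% higher. The chaperones of the endoplasmic reticulum had the highest FPKM of this list. Calreticulin (CALR) had an FPKM of 274 in live and 259 in processed cells. PDIA3, the disulfide isomerase of the loading complex, had 259 and 216, and calnexin (CANX), which holds the newly made heavy chain, had 125 and 110.

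Tapasin (TAPBP), which bridges class I molecules to the peptide transporter, was at 8.96 and 8.17 FPKM. The transporter subunits were low in both libraries. TAP1 was at 0.055 FPKM in live cells and listed at 0 in processed cells, and TAP2 at 0.594 and 0.732 with overlapping bounds. The interferon-inducible subunits of the immunoproteasome differed in level. PSMB9 was listed at or next to 0 in both libraries, PSMB8 had 0.073 FPKM in live and 0.843 in processed cells with separate bounds, and PSMB10 had 5.34 and 3.20. The proteasome activators PSME1 and PSME2 were higher, at 56.6 and 34.5 FPKM in live and 59.7 and 26.5 in processed cells. The trimming peptidase ERAP1 was at 5.36 and 3.62 FPKM, its relative ERAP2 at 0.019 and 0.012, and the tapasin-related gene TAPBPL at 0.995 and 0.413. NLRC5, the class I transactivator, was at 0.092 FPKM in live cells and listed at 0 in processed cells. The subunits of the RFX complex, which binds the X box with it, were present throughout, RFXANK at 48.3 and 47.7 FPKM, RFX5 at 20.9 and 17.3 and RFXAP at 6.08 and 4.49. In both libraries B2M, HLA-C and HLA-B, the highest members, were at 22.2 FPKM or more. TAP1, PSMB9 and NLRC5, among the lowest genes of the list, were under 0.1 FPKM in both. HLA-E was at 11.0 FPKM in live and 8.60 in processed cells, and HLA-F and HLA-G were at or near 0.

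Interferon response genes, which share inducers with class I, differed both ways. Of 23 listed, 16 reached an FPKM of 1, with 6 higher, 4 lower and 6 overlapping, and a median log2 ratio of 0.053, where 28.1% of all genes were higher and 43.7% lower. Among the highest were the membrane protein IFITM3 (46.6 FPKM live, 48.2 processed) and STAT2, a transcription factor of the type I interferon pathway (49.9 and 38.3). The largest difference upwards was that of IRF2, at 3.75 FPKM in live and 7.27 in processed cells, and the largest downwards that of BST2, which encodes tetherin, at 6.69 and 1.58, past 2-fold. Of 10 genes of interferon and NF-kB signalling, 7 were lower, 0 higher and 3 overlapping, beside the same shares of all genes, 43.7% lower and 28.1% higher. The median of the 10 was -0.31, against -0.092 for all genes. After division by the median ratio, 6 of the 10 were lower and 1 higher with a median of -0.21. With that scaling, 35.7% of all genes were lower and 34.8% higher. The highest of the 10 genes were TYK2 (44.1 and 49.4 FPKM), the receptor chain IFNGR2 (30.3 and 26.3) and the NF-kB inhibitor NFKBIA (28.7 and 21.4). The largest difference downwards was that of IFNAR1, a chain of the type I interferon receptor, at 10.6 FPKM in live and 5.80 in processed cells.

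Class I-like genes resemble heavy chains in fold but serve other ends. Of 14 listed, 4 reached an FPKM of 1, with 0 higher, 3 lower and 1 overlapping, where 43.7% of all genes were lower. FCGRT, which pairs with β2-microglobulin as the neonatal Fc receptor, had 23.9 FPKM in live and 22.7 in processed cells with overlapping bounds. Of the stress ligands of the NKG2D receptor, MICA and ULBP3 reached an FPKM of 1, and RAET1E and RAET1L were listed at 0 in both libraries. MICA was at 3.05 FPKM (2.71 to 3.39) in live and 0.162 FPKM (0.115 to 0.209) in processed cells, and ULBP3 at 2.88 and 0.665. Both were past 2-fold with separate bounds, where 6.19% of all genes were past 2-fold lower. MICA overlaps HCP5 in the files, a non-coding gene at 0.492 and 0.386 FPKM, and whether reads were assigned differently between them was not tested. Receptors of immune cells that bind class I were not expressed at a notable level. None (0) of 14 listed receptors reached an FPKM of 1, the highest being CD160 at 0.500 and 0.710, CD8B at 0.493 and 0.390 and KLRD1, which encodes CD94, at 0.285 and 0.061.

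**Figure D5:**
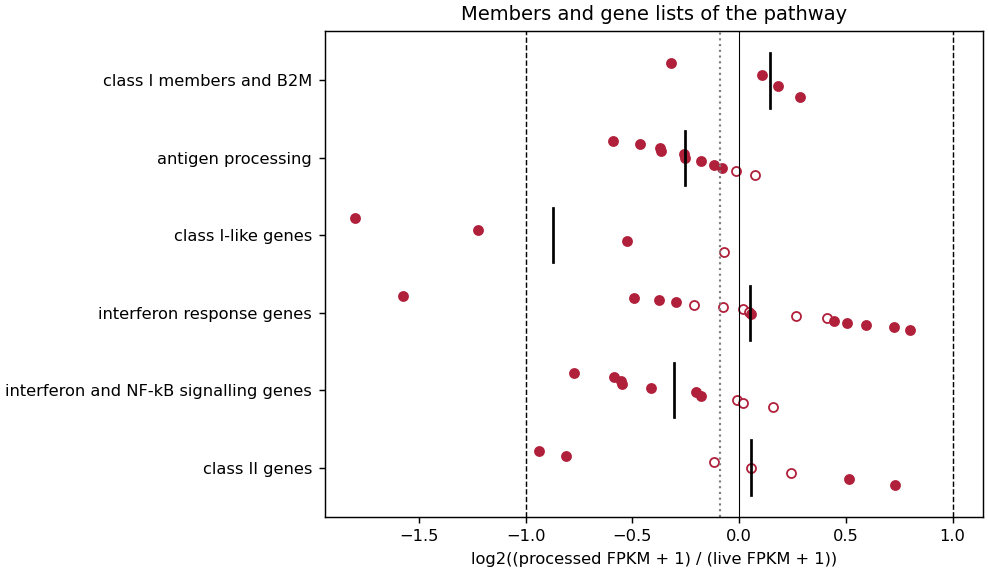
Log2 ratio of processed to live FPKM (pseudocount 1) of each gene expressed at 1 FPKM or more in either library, for the members and 5 gene lists. Filled points have separate bounds and open points overlapping bounds, black bars are medians, the dotted line is the median of all genes at -0.092 and dashed lines mark 2-fold. Antigen processing genes lie mostly left of 0, whereas 3 of the 4 members lie right of it.

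Markers of other cells that express class I or HLA-G were examined beside these values. Of 9 leukocyte markers, 8 were under an FPKM of 1 in both libraries, and the summed FPKM was 3.44 in live and 5.39 in processed cells. PTPRC, which defines leukocytes, was at 0.174 in live cells and listed at 0 in processed cells, and CD3E was listed at 0 in both. The actin regulator CORO1A was the exception, at 1.85 and 4.68 FPKM. Of the 7 endothelial markers 6 were found, with a summed FPKM of 4.28 and 2.92. Of 10 trophoblast markers 5 reached an FPKM of 1, with a summed FPKM of 81.9 and 78.9. The highest were KRT7, TFAP2A and GATA3, which other epithelia also express. The hormone alpha chain gene CGA was at 2.52 and 1.88 FPKM, whereas GCM1, CGB and the syncytin genes were under 0.1 in both libraries. The 8 mesenchymal markers summed to 99.0 and 93.3 FPKM, with 2 higher, 4 lower and 2 overlapping. Among them DCN was at 4.18 FPKM in live and 12.4 in processed cells, and PDGFRB at 4.26 and 1.17, past 2-fold in opposite directions. The 6 pluripotency markers summed to 165 and 127 FPKM, most of it from LIN28A at 119 and 88.7, with 1 higher, 4 lower and 1 overlapping. For these counts and the mesenchymal ones, the shares over all genes were 28.1% higher and 43.7% lower. NANOG was higher in the processed library (1.27 against 7.34 FPKM), whereas TDGF1 (5.54 against 1.46) and ZFP42 (6.98 against 2.57) were lower, each past 2-fold. The part of these cells in the class I values was not tested.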

How the data were processed

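RNA-seq of 1 live and 1 processed sample of H1-derived Stage 6 cells was used. The authors aligned paired reads to GRCh37/hg19 with STAR 2.2.0c, guided by GENCODE annotations, and deposited an FPKM value per gene with its lower and upper bound, computed with Cufflinks 2.0.2 per the labels (the methods name Cuffdiff). Read counts were not used here, so depth enters only through the bounds. The 6 genes, the gene lists and the alternatives were chosen with earlier results of these data known.

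The files were joined by Ensembl identifier with Python 3.11.15, numpy 2.4.6 and pandas 2.3.3. All 6 members had status OK in both. Ratios used a pseudocount of 1. Genes counted as expressed had 1 FPKM or more in either library, and bounds were separate when they did not overlap. Genes were named by a fixed rule: the members, other expressed HLA genes, all antigen processing genes, the 3 highest and the largest rise and fall of the 5 other pathway lists, overlapping genes and the gene nearest to each member in level. Results that need items withheld for evaluation are not reported here. Cell type markers and NKG2D ligands beyond these were named after their values were seen. Transcripts came from GENCODE mapped to GRCh37, in a later release than the authors used, and promoters from RefSeq. Coding sequences were aligned with Biopython 1.88. The calculations were tested on simulated data.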

Additional observations from a re-analysis of the deposited data

How the results depend on the processing

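No paired analysis was possible because each group has 1 sample, and no replicate could be left out for the same reason. A pseudocount cannot change the direction of a ratio, and each scaling tried raised the processed values. Of B2M, HLA-B, HLA-C and HLA-E, only HLA-E could therefore have changed direction. HLA-E stayed lower, at -0.29 after rescaling to the live FPKM sum and -0.23 after division by the median ratio. After division by the median ratio, the log2 ratio of B2M was 0.285 and that of HLA-C 0.206, both beyond the range that their bounds give. With a pseudocount of 0.1 the log2 ratio was -0.19 for HLA-F and -0.79 for HLA-G. Without a pseudocount neither gave a value. The median of the 5 heavy chain members, -0.020, is the value of HLA-F and has no stable direction. It was -0.19 with a pseudocount of 0.1, 0.108 without a pseudocount and 0.106 over the 3 members with an FPKM of at least 1. Counting separate bounds over all 6 members, chosen after seeing the data, gave 5 in place of 4. The ratio of B2M to the heavy chain sum became 3.74 in live and 3.95 in processed cells without HLA-C. In all, 34 of 43 alternative values stayed within the bounds or counts allowed, 7 moved beyond them and 2 changed sign. Some of the 34 could not move. The bounds of the B2M to heavy chain ratio were compared with themselves. HLA-F, HLA-G and the heavy chain median, which is the value of HLA-F, did not change under scaling because their processed values were at or near 0. The 34 of 43 is therefore no measure of stability. With 1 library per condition, no difference can be set against that between libraries of the same condition.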

Other observations

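Class II genes, which in the body mark antigen-presenting cells, were also measured. The HLA genes among them lie in the same region of chromosome 6, whereas CD74 is on chromosome 5 and CIITA on chromosome 16. Of 13 listed, 7 reached an FPKM of 1, with 2 higher, 2 lower and 3 overlapping. The shares over all genes were 28.1% higher and 43.7% lower. The invariant chain CD74 was at 20.2 FPKM in live and 21.0 in processed cells. HLA-DMA, which edits class II peptides, was at 4.97 and 8.90 FPKM and its partner HLA-DMB at 0.884 and 1.69, each with separate bounds. HLA-DPB1 was at 7.77 and 4.00 FPKM, HLA-DQB1 at 1.97 and 0.553, HLA-DPA1 at 1.12 and 1.51 and HLA-DOA at 2.25 and 1.995. The chain HLA-DRA was at 0.020 FPKM in live cells and listed at 0 in processed cells, and the class II transactivator CIITA was next to 0 in both. A further 35 rows of the files besides the members carry an HLA name, and 11 of these 35 were above 0 in live and listed at 0 in processed cells, and 0 were the other way round. The direction was the same over all 55797 genes, of which 5375 (9.63%) were at 0 in the processed library alone and 982 (1.76%) in the live library alone. The share at 0 in the processed library alone was larger among the 35 HLA rows, at 31.4%. These shares are not matched for level. In live cells 26176 of the 55797 genes were already at 0, against 10 of the 35 HLA rows. The reason for the larger share was not tested. HLA-L, a transcribed pseudogene of class I, had 0.966 FPKM in live and 1.34 in processed cells.

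By Euclidean distance of log2(FPKM + 1) in the 2 libraries, the genes nearest to the members in level were SUB1 for B2M (120 and 139 FPKM), METTL5 for HLA-B (22.2 and 27.1), SERPINF2 for HLA-C (55.5 and 60.4) and RBM27 for HLA-E (11.0 and 8.64). With 2 libraries this likeness is of level alone.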
